A study of Mus musculus with 4 samples.

Results

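The MAP kinase cascade and its Dusp phosphatases were examined in an m6A-seq study of mouse macrophages. Members were all genes whose symbol is Mapk, Map2k, Map3k, Map4k or Dusp followed by a number, and which had a row in a peak list or in the table of differences, with 1 kinase gene left out by the same rule. Of 66 genes of these families considered by role, 43 had a row, among 13067 genes with a row in all. The members held 65 of the 16709 peaks in WT and 85 of the 21031 peaks in KO, and 28 of the 6050 peaks of the authors' table of differences. Scaffold proteins of the cascade and kinases that carry another name are not members and are described separately.

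N6-methyladenosine (m6A) is a methyl mark placed inside messenger RNA by a nuclear writer complex, of which Mettl3 is the catalytic subunit. For m6A-seq, messenger RNA is broken up and an antibody against the mark pulls down a share of the fragments (the IP library), and a peak is a stretch where IP reads exceed those of the untreated fragments (the input library). The WT group was bone-marrow-derived macrophages of C57BL/6 mice with the genotype Mettl3fl/fl, in which loxP sites flank part of the gene but no recombinase is present. The KO group had the genotype Mettl3fl/fl,LyzM-cre, where Cre is made from the lysozyme 2 (LyzM) promoter, so that deletion is limited to cells that use that promoter and can be incomplete in a culture. Both cultures were grown from bone marrow with macrophage colony-stimulating factor (M-CSF) for 7 days, and the labels name no further stimulus and no age or number of animals. Each group had 1 IP and 1 input library, 4 in all, so no difference between WT and KO has a replicate check, and intervals given for shares or medians cover only counting error or the spread among peaks or genes, taken as independent although peaks of 1 gene are not.

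MAP kinase cascades pass signals from receptors at the cell surface to the nucleus by serial phosphorylation. A MAP4K or a small GTPase activates a MAP3K, which phosphorylates a MAP2K, which phosphorylates a MAP kinase of the ERK, JNK or p38 type, and the MAP kinase then acts on transcription factors and further kinases. The Dusp genes encode dual-specificity phosphatases, and the typical ones among them dock on MAP kinases and remove the activating phosphates. In macrophages these cascades are known for carrying signals from Toll-like receptors and from the M-CSF receptor, and several Dusp genes are themselves induced as feedback.

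The start of the transcript is shown first, because the members' peaks lay in the 5′ UTR more often than peaks at large, as described further on. RefSeq (GRCm38.p6) gave the first 50 transcribed bases for 35 of the 43 members, in 46 windows, as some members have several starts. Of these windows, 9, from 9 genes, lay wholly inside a peak of that member. The core of the m6A consensus, GGACT in DNA letters, was searched on the transcribed strand only. It was found in 4 of these 9 windows and in 7 of all 46, against 5.76% of the 32851 windows in the RefSeq table. That last share covers windows inside and outside peaks. The share among windows inside a peak of any gene was not computed, so the 4 of 9 do not set the members apart. A match of these letters is a description of the window and does not mark a methylated base. The 4 matching windows are given as runs of 30 bases with the motif in capitals, and a start of Map3k1 is added because a differential peak begins there, although it holds no match. That start is 1 of the RefSeq starts of Map3k1 and lies 9.28 kb inside the gene's full RefSeq extent. The KO peak over the Map3k6 window had an FDR of 0.22.
Map3k6 (chr4:133240838-133240867, plus strand, within a KO peak of 9.45-fold enrichment): ggttgacttcccaGGACTcttctgtgacct
Map3k10 (chr7:27674552-27674581, minus strand, within a WT peak of 13.7-fold and a KO peak of 2.11-fold enrichment): gagGGACTtagggggccgaccaggagccgg
Dusp7 (chr9:106368639-106368668, plus strand, within a WT peak of 1.71-fold and a KO peak of 1.95-fold enrichment): gccggccgggcgGGACTgaggccggaggct
Map3k5 (chr10:19934546-19934575, plus strand, within a KO peak of 5.9-fold enrichment): agacggtgcgtctgggctggGGACTccggg
Map3k1 (chr13:111808964-111808993, minus strand, within a WT peak of 3.86-fold enrichment): agcgaatgtagcccgcgagagaaaatggcg

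Some facts of the whole series bear on these results. The read totals of the 4 libraries are not known here, so the depth behind each peak is unknown. Mettl3 itself had no WT peak and 1 KO peak, in its 3′ UTR, at 1.35-fold enrichment, and no input level is listed for it, so the deletion could not be checked on its transcript. Of 12 macrophage markers, 8 had a WT peak and 10 a KO peak, and the 7 with a listed level summed to 12173 FPKM in WT and 8311 FPKM in KO, most of it Lyz2 (10533 and 6615 FPKM). Without Lyz2, the other 6 summed to 1640 FPKM in WT and 1696 FPKM in KO, and 4 of them (Adgre1, Cd14, Fcgr1 and Spi1) were higher in KO. Of 7 neutrophil markers, 2 had a listed level, S100a8 and S100a9, which summed to 233 FPKM in WT and 137 FPKM in KO, and 1 of 4 B cell markers had one (1.12 and 0.734 FPKM). Dendritic cell markers had a peak for 1 of 5 in WT and in KO, stromal markers for 2 and 3 of 4, and osteoclast markers for 2 and 4 of 4, with no level listed for any of these, and T and NK cell and erythroid markers had no peak in either list. The part of other cell types in the members' values was not tested.

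Among the called peaks, 31 members had peaks in both lists (72.1%), 4 in WT only (9.30%) and 8 in KO only (18.6%), beside 65.3%, 10.4% and 24.2% of all 13035 genes with a peak. The enrichment of each peak is the authors' ratio of IP over input and is described within its own list. The median over the members was 4.59-fold in the WT list, where the median of all peaks was 3.74-fold, and 2.36-fold in the KO list, where it was 3.15-fold. Members' peaks thus lay above the middle of the WT list and below the middle of the KO list. Their exonic length had a median of 358 bases in WT and 270 bases in KO, beside 391 and 330 bases for all peaks. The highest WT enrichments belonged to Mapk3 (39.5-fold), Dusp16 (23.1-fold), Dusp5 (18.4-fold), and Mapk7 and Map3k12 (17.3-fold each), and the highest KO enrichments to Mapk3 (21.5-fold), Map3k12 (17.7-fold), Dusp10 (10.6-fold) and Map3k1 (10-fold).

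Of the 65 WT peaks of members, 41 had an exonic base in common with a KO peak (63.1%, exact 95% interval 50.2 to 74.7%), and of the 85 KO peaks 54 had one in common with a WT peak (63.5%, 52.4 to 73.7%). Over all genes these shares were 73.4% and 61.6%. For the 31 members with peaks in both lists, the length covered by peaks had a median of 1169 bases in WT and 1080 bases in KO, and it was shorter in KO for 22 of the 31, where 48.0% of all genes with peaks in both lists had a shorter length in KO. The mean length per member peak was 658 bases in WT and 480 bases in KO. In some members 1 long WT peak stood over several short KO peaks. Dusp5 had a WT peak of 2086 exonic bases over 3 KO peaks, and Mapk7 had a WT peak of 2302 exonic bases over KO peaks of 1555, 270 and 210 bases. The reverse occurred as well. A KO peak of Map3k4 of 1767 exonic bases overlapped WT peaks of 240 and 1528 bases, and a KO peak of Map3k12 of 1380 bases overlapped a WT peak of 211 bases.

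By the authors' annotation, 20 of the 65 WT peaks of members lay in a 5′ UTR (30.8%, 19.9 to 43.4%), beside 13.0% of all WT peaks. In KO the share was 17 of 85 (20%, 12.1 to 30.1%), beside 10.3% of all KO peaks. Both members' intervals lay above the share of all peaks. Peaks annotated to other exons made up 13.8% of the members' WT peaks and 29.4% of their KO peaks, beside 27.4% and 25.6% over all genes, and 3′ UTR peaks made up 55.4% and 50.6%, beside 59.6% and 64.1%. The annotation gives 1 class to a whole peak, so the WT peak of Mapk7, 2302 exonic bases long, counts as 5′ UTR, whereas the KO peaks beneath it count as exon or 5′ UTR. A second measure pointed the same way with less distance: 38.5% (26.7 to 51.4%) of the members' WT peaks touched the start site of their gene as the authors placed it, beside 27.4% of all WT peaks, and 27.1% (18.0 to 37.8%) did so in KO, beside 21.0%. Both of these intervals held the share of all peaks, so this difference was not larger than counting error.

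**Figure D1:**
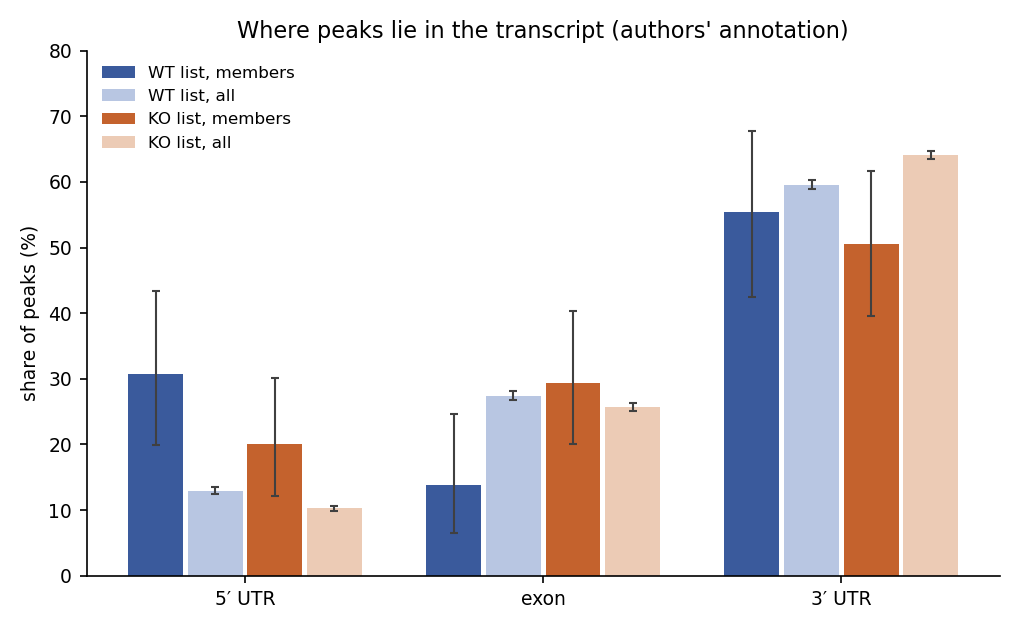
Share of peaks (percent, y axis) that the authors annotated to the 5′ UTR, an exon or the 3′ UTR, for the members (dark bars) and all genes (pale bars) in the WT and KO lists, with exact 95% intervals. The members' 5′ UTR bars stand at 30.8% in WT and 20% in KO, above 13.0% and 10.3% for all peaks.

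The authors' deposited table of differences lists a log2 ratio of KO over WT enrichment for peaks with a p under 0.05 for the difference, so smaller differences are not in it and a member without a row is not shown to be equal. A row in the authors' deposited table was held by 21 of the 43 members (48.8%), beside 36.0% of all genes with a peak. The ratio was below 0, that is, lower in KO, at 25 of the 28 member peaks of the authors' deposited table (89.3%, 71.8 to 97.7%), where 69.6% of all its peaks were lower. Its median over the members was -0.51 (-0.83 to -0.42) in the authors' deposited table, and -0.40 over all rows. Because the whole of the authors' deposited table leans this way, the members were also set against its median: 20 of the 28 peaks lay below it and 8 at or above it (71.4% below). A ratio at least 1.5-fold lower was listed for 12 of the 28 (42.9%) in the authors' deposited table, beside 31.7% of all rows, and for 5 of the 28 once the table's median was subtracted. The authors' false discovery rate (FDR) was under 0.05 with a lower ratio for 21 of the 28 in their deposited table, beside 57.0% of all rows. By region, 15 of 17 member peaks in 3′ UTRs were lower (88.2%, beside 63.2% of all). In 5′ UTRs 4 of 5 were lower (80%, beside 88.7%), and in other exons 6 of 6 (beside 85.2%). Among the 1209 rows strongest by peak p, 5 of 6 member peaks were lower (83.3%, beside 96.4%), and among the other rows 20 of 22 (90.9%, beside 62.9%). The members' higher share was thus not seen in 5′ UTRs or among the strongest rows.

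**Figure D2:**
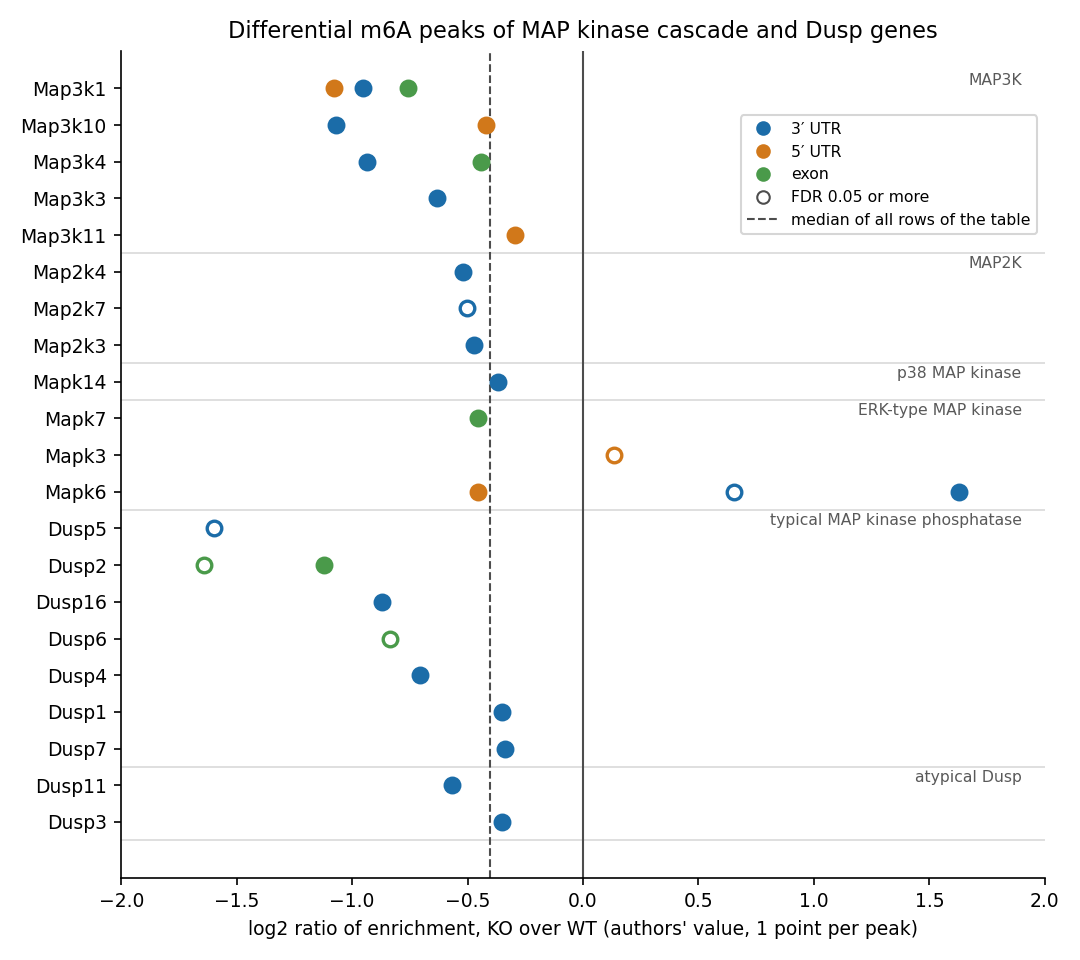
Each point is 1 differential peak of a member, at the authors' log2 ratio of KO over WT enrichment (x axis), with genes grouped by role (y axis), colours for the transcript region and open points for an FDR of 0.05 or more. Of the 28 points, 25 lie left of 0, and the 3 to the right belong to Mapk3 and Mapk6; the dashed line is the table's median of -0.40.

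At the top of the cascade, none of the 4 MAP4K genes with peaks had a row in the differential table. Map4k4, a kinase that feeds the JNK cascade, had 2 WT peaks in its 3′ UTR, at 14.3-fold and 1.66-fold, which both overlapped a KO peak, at 2.66-fold and 1.57-fold. Map4k1, a kinase of blood cells, had 1 WT peak (8.16-fold, FDR 0.12) and none in KO, and Map4k5 had 2 KO peaks (up to 2.36-fold, lowest FDR 0.14) and none in WT. The highest peak of Map4k2 (10.2-fold in WT, 5.9-fold in KO) lies outside the RefSeq extent of that gene, so its origin from Map4k2 is not given by position.

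The MAP3K genes, which take up signals and start each cascade, had 9 differential peaks in 5 genes, all 9 with a lower ratio and an FDR under 0.05 in the authors' deposited table, with a median of -0.76. Over all its rows, 69.6% had a lower ratio, 57.0% had a lower ratio and an FDR under 0.05, and the median was -0.40. Map3k1, an activator of the JNK cascade, was the member with most lower peaks. Its 3 differential peaks lay at 3 separate places. The authors' deposited table lists -1.08 at the 5′ UTR peak (chr13:111808754-111808993), where the WT peak had 3.86-fold and the KO peak 1.82-fold enrichment. At the peak over exon 12 of 20 (chr13:111755321-111757118) the authors' deposited table lists -0.76, with 14.1-fold enrichment in the WT list and 10-fold in the KO list. In the 3′ UTR (chr13:111748521-111750542) it lists -0.95, again as the authors' deposited table has it, with 4.87-fold in WT and 1.89-fold in KO. The KO list further held a 3′ UTR peak of 7.08-fold near the end of Map3k1 that overlapped no WT peak.

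Map3k10 and Map3k11 encode mixed-lineage kinases, which act above JNK. Map3k10 had a WT peak of 1610 exonic bases at 13.7-fold, over which the KO list had several short peaks. The authors' deposited table lists 2 differences inside that WT peak, -1.07 (chr7:27668206-27668415), where the KO peak had 2.26-fold, and -0.42 in the 5′ UTR (chr7:27673377-27674181), where it had 2.68-fold. The first is annotated as 3′ UTR although a WT peak of Map3k10 annotated to exon 5 of 10 lies downstream of it. At Map3k11 the authors' deposited table lists -0.29 in the 5′ UTR (chr19:5689692-5690498), the smallest of the MAP3K differences, with 2.65-fold in WT and 2.36-fold in KO. A row that overlaps this stretch but is named Gm50315 (chr19:5689655-5690010) has -0.85 in the authors' deposited table, with an FDR of 0.0093. Its enrichment was 3.59-fold in WT and 1.94-fold in KO, so the size of the difference there depends on the row.

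Map3k4, which acts above p38 and JNK, had -0.94 in its 3′ UTR (chr17:12227621-12229736) and -0.44 in exon 3 of 26 (chr17:12270872-12274686) in the authors' deposited table. The WT and KO enrichments were 4.71-fold and 3.13-fold at the first and 8.53-fold and 7.4-fold at the second. Map3k3, a kinase above Mapk7, had -0.63 in its 3′ UTR (chr11:106151607-106155118) in the authors' deposited table, with 10.8-fold in WT and 5.81-fold in KO, over nearly the same exonic length (1699 and 1609 bases). Of the MAP3K genes without a differential row, Map3k12 had close values of its highest peak in both lists (17.3-fold and 17.7-fold, over the same 301 exonic bases), as did Map3k8, a kinase above ERK in macrophages (1.84-fold and 1.94-fold). Map3k6 and Map3k9 had peaks in both lists, but neither KO peak of Map3k6 had an FDR under 0.05 (0.22 and 0.062). Map3k5 (2 peaks, up to 5.9-fold, lowest FDR 0.0036) and Map3k14 (2 peaks, up to 1.85-fold, lowest FDR 0.087) had peaks in KO only, and the peaks of Map3k15 lay outside its RefSeq extent.

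The MAP2K genes had 3 differential peaks, all in 3′ UTRs, at -0.52, -0.50 and -0.47 in the authors' deposited table, all just below the table's median. Map2k4, which phosphorylates JNK and p38, had the first (chr11:65689887-65696430), with 7.96-fold enrichment in WT and 5.9-fold in KO. Map2k3, which phosphorylates p38, had the last of them (chr11:60952065-60952811), with 4.67-fold and 3.7-fold. Map2k7, which phosphorylates JNK, had the other (chr8:4245923-4246073), where the WT list had a peak of 1.63-fold and the KO list none, and its FDR in the authors' deposited table was 0.069. The ERK activators Map2k1 and Map2k2 had peaks in KO only, 1 and 4 in number and at most 1.64-fold and 4.13-fold, and no differential row.

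Among the MAP kinases, the last kinase of the cascade, stood the only higher ratios of members, 3 in number and all in ERK-type genes. Mapk14, the main p38 kinase, had -0.37 over its 3′ UTR (chr17:28746938-28748406) in the authors' deposited table, above the table's median, while its enrichment was 4.64-fold in the WT list and 6.71-fold in the KO list over peaks of 1469 and 1499 bases. Mapk7, the ERK5 kinase, had -0.46 (chr11:61490097-61492934, annotated to exon 2 of 6) in the authors' deposited table, with 17.3-fold in WT and 4.2-fold in KO. Mapk3, the ERK1 kinase, carried the members' highest enrichment in both lists, in its 5′ UTR (chr7:126759601-126760706), at 39.5-fold in WT and 21.5-fold in KO, and yet the authors' deposited table lists +0.13 there, with an FDR of 0.078. At Mapk3 and Mapk14 the order of the 2 lists' enrichments and the sign of the ratio were opposite. Mapk8, a JNK, had 1 KO peak of 2.21-fold (FDR 0.27) and no WT peak.

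Mapk6, an atypical ERK-type kinase, had differences in both directions. Its 5′ UTR peak (chr9:75395627-75398417) had -0.45 in the authors' deposited table, with 4.98-fold in WT and 3.71-fold in KO. The 2 other rows, near the end of the gene, overlapped no WT peak. They are interleaved, as the second lies between the exonic blocks of the first. The authors' deposited table lists +1.63 for the first of these, with an FDR of 0.016 (chr9:75386746-75389019, 177 exonic bases), and +0.65 for the other, with an FDR of 0.056 (chr9:75386932-75387051), and the KO peaks there had 3.94-fold and 2.31-fold enrichment. A further KO peak (chr9:75388964-75390192, 1.65-fold, FDR 3.72e-05) overlapped no WT peak either. It shared bases with the 3.94-fold KO peak and with the row at +1.63, so these are not separate places. The 3.94-fold KO peak has a block 40.9 kb from the gene's RefSeq 5′ end, whereas the RefSeq gene ends at 23.2 kb, so part of it lies outside Mapk6.

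The typical MAP kinase phosphatases had 8 differential peaks in 7 genes, all lower in KO, with a median of -0.85 in the authors' deposited table. Over all its rows, 69.6% were lower and the median was -0.40. An FDR under 0.05 was listed for 5 of the 8, all lower, beside 57.0% of all rows with such an FDR and a lower ratio. Among these phosphatase genes, the 3 with the lowest input, Dusp5, Dusp16 and Dusp2, also had the lowest ratios. Dusp2, an inducible nuclear phosphatase, had a single WT peak of 1405 exonic bases at 10.7-fold, in 3 blocks along a RefSeq gene of 2.22 kb, and 2 short KO peaks at 2.0-fold and 3.74-fold. The authors' deposited table lists -1.64 in exon 1 of 4 (chr2:127336249-127336398, FDR 0.076) and -1.12 for the stretch after it (chr2:127336547-127337374, FDR 0.004). Dusp5, a nuclear phosphatase of ERK, had -1.6 (chr19:53537613-53541329, FDR 0.056) in the authors' deposited table, with 18.4-fold in WT and 3.54-fold in KO, at an input level of 0.466 FPKM in WT and 1.46 FPKM in KO.

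Dusp16, a phosphatase of JNK, had -0.87 in its 3′ UTR (chr6:134717807-134720599) in the authors' deposited table, with 23.1-fold in WT and 4.27-fold in KO, over 1441 and 1381 exonic bases. Dusp4, a nuclear phosphatase, had -0.70 in its 3′ UTR (chr8:34817292-34819418) in the authors' deposited table, with 14.3-fold and 5.42-fold. The cytoplasmic ERK phosphatases Dusp6 and Dusp7 differed in size, with -0.83 in exon 2 of 3 of Dusp6 (chr10:99264579-99264847, FDR 0.072) and -0.34 in the 3′ UTR of Dusp7 (chr9:106373627-106374765) in the authors' deposited table. Their WT and KO enrichments were 5.1-fold and 3.54-fold for Dusp6, and 4.43-fold and 3.31-fold for Dusp7. Dusp1, the early-response phosphatase of p38 and JNK, had -0.35 in its 3′ UTR (chr17:26505679-26506544) in the authors' deposited table, with 3.65-fold and 2.88-fold. Dusp10 had peaks in both lists (up to 10.2-fold in WT and 10.6-fold in KO) and no differential row, and Dusp9 had 2 WT peaks, up to 12.2-fold (lowest FDR 0.011), and none in KO.

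The atypical Dusp genes, which lack the MAP kinase docking domain, had 2 differential peaks. Dusp11, a phosphatase that acts on RNA, had -0.57 in its 3′ UTR (chr6:85947544-85947724) in the authors' deposited table, at low enrichment in both lists (1.75-fold and 1.19-fold). Dusp3, which acts on ERK and JNK, had -0.35 in its 3′ UTR (chr11:101972723-101980613) in the authors' deposited table, with 9.06-fold in the KO list. Dusp3 counts as a member without a WT peak only through naming: the WT peak at that place, of 2267 bases and 11.7-fold, was assigned by the authors to its neighbour Sost. Dusp18, Dusp23 and Dusp28 had peaks in both lists, at most 15.3-fold, 3.23-fold and 7.65-fold in WT and 4.72-fold, 3.25-fold and 1.86-fold in KO. Dusp13 (1.67-fold, outside the RefSeq gene) and Dusp19 (2.61-fold) had 1 WT peak each and none in KO.

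**Figure D3:**
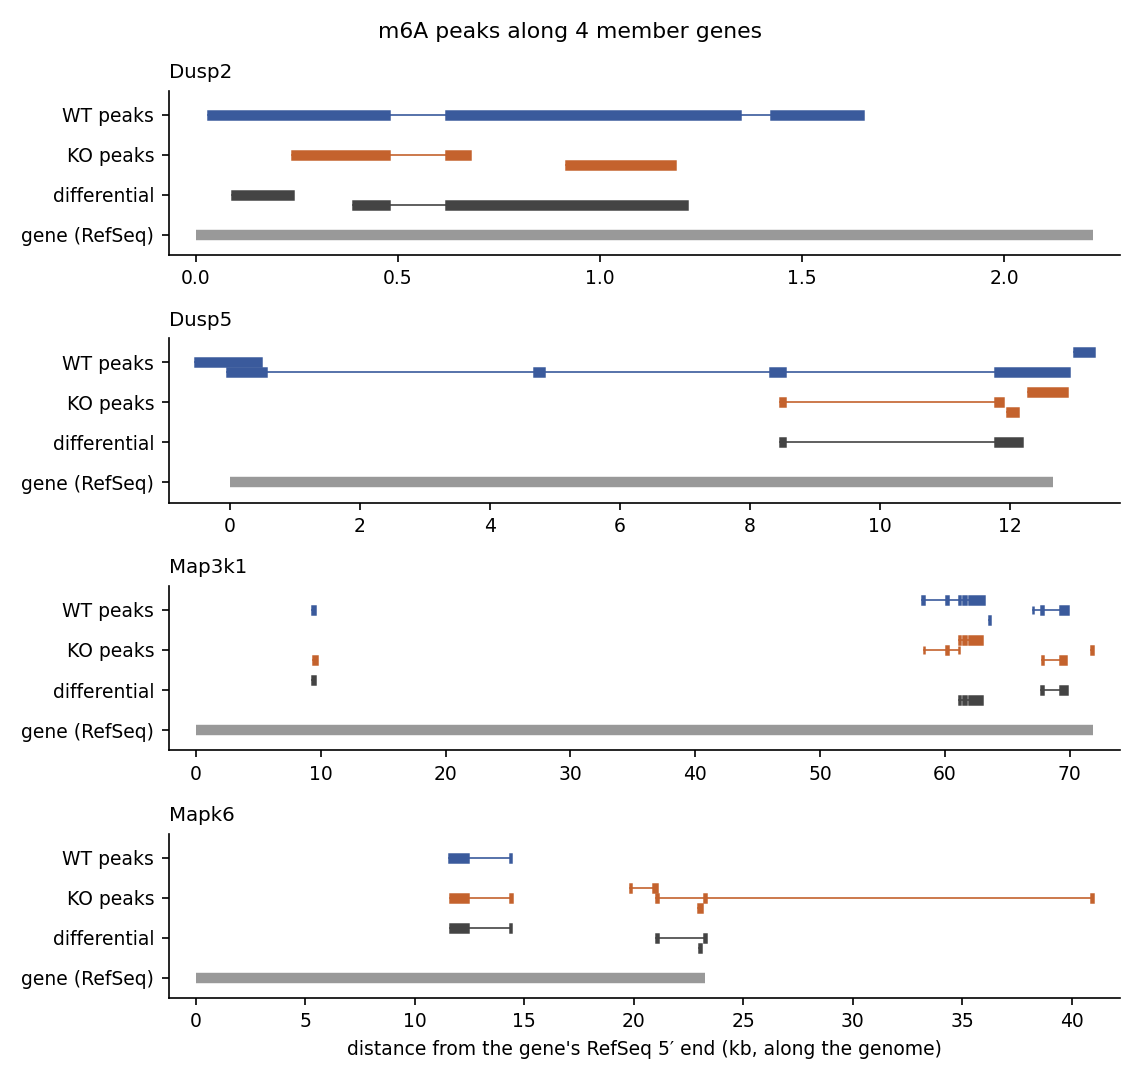
Peaks of Dusp2, Dusp5, Map3k1 and Mapk6 by distance from the gene's RefSeq 5′ end (kb along the genome, x axis), with boxes for exonic blocks, thin lines for introns between them, and the gene's extent in grey. Dusp2 and Dusp5 show 1 long WT peak over short KO peaks, and Dusp5 has further WT peaks at either end that overlap no KO peak. Map3k1 shows 3 separate differential peaks. Mapk6 shows 3 KO peaks in its last part that overlap no WT peak, some of which overlap each other.

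Assignment to neighbours touched other members as well. Inside the RefSeq extents of the 66 genes, 27 WT peaks, 27 KO peaks and 9 differential peaks carried another gene's name. Of these, 20, 21 and 8 either lay outside the RefSeq extent of the gene they were named for or were named for a gene without such an extent, as Gm49654 below. By the authors' deposited table, such peaks lay in 3 genes that had no differential row of their own, at -0.97 in Map3k9 (named Gm49654), -0.55 in Map3k14 (named Spata32) and -0.61 in Map3k20 (named Cdca7). Of all 9 such differential peaks, the authors' deposited table has 7 below 0 and 2 above it, the latter at +1.2 in Map3k3 (named Limd2, FDR 0.00045) and +0.47 in Mapk3 (named Gdpd3, FDR 3.39e-05). The peak in Map3k14 had 11.7-fold enrichment in WT and 6.11-fold in KO, and the one in Map3k20, which otherwise had no row, 8.37-fold and 6.42-fold. The strand of peaks is not given, so these peaks were not moved to the members and stand in none of the counts above.

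Input levels were available for the 21 members with a differential peak, in FPKM (a fragment count corrected for the length of the transcript and the size of the library). Mapk3 and Dusp3 were the most abundant, at 87.7 and 57.2 FPKM in WT and 72.7 and 55.9 FPKM in KO. Next came Mapk14 (24.8 and 28.4 FPKM), Map3k11 (22.8 and 24.7 FPKM), Map3k3 (19.7 and 22.1 FPKM) and Map2k3 (15.5 and 19.3 FPKM). Dusp2 (2.66 and 2.40 FPKM), Map3k4 (2.07 and 2.42 FPKM), Dusp16 (1.13 and 1.44 FPKM) and Dusp5 were the lowest. The remaining members lay between 4.54 and 15.9 FPKM in both inputs.

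Of the 20 members with a mean of at least 1 FPKM, 17 were higher in KO input (85.0%), beside 69.0% of all 3679 such genes, and none was 1.5-fold or more higher, beside 1.22% of all. The difference in log2(FPKM + 1), a scale that understates the change of low genes, had a median of 0.15 (0.053 to 0.19) over the members and of 0.072 over all listed genes. The largest differences among the 20 were 0.39 at Dusp7 and 0.30 at Map2k3, and the lowest was -0.27 at Mapk3. Dusp5, under the level required, had the largest ratio of input, 3.12, and in the authors' deposited table its input difference had a p of 0.0233 and an adjusted p of 1. The adjusted p was 1 for each of the 21 members in the authors' deposited table.

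**Figure D4:**
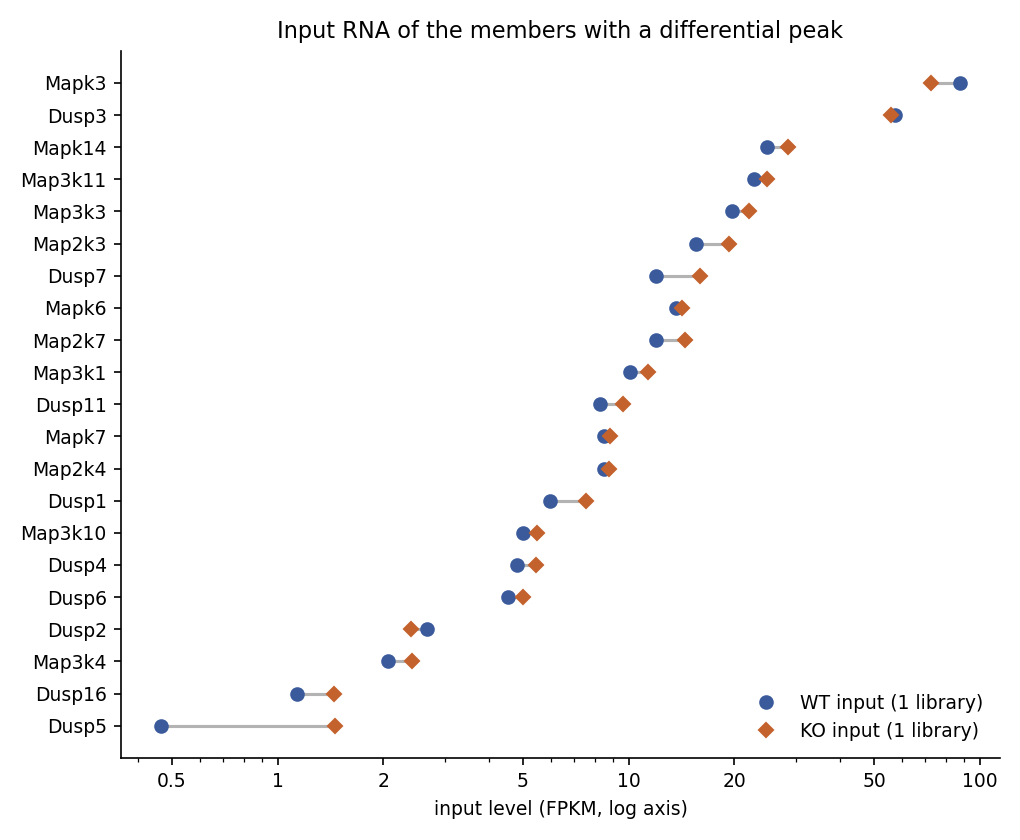
Input level (FPKM, log x axis) of each member with a differential peak, in the 1 WT library (circles) and the 1 KO library (diamonds). The diamond lies right of the circle for all members but Mapk3, Dusp3 and Dusp2, and the widest gap is that of Dusp5 (0.466 and 1.46 FPKM).

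Peak ratio and input level were related among the members. Over the 20 members with at least 1 FPKM on average, Spearman's rho between the mean level and the gene's median ratio was 0.73, and it was 0.44 over the 3679 listed genes. Less abundant transcripts thus had lower listed ratios. The points share the same 4 libraries, and the authors' table keeps only rows with a p under 0.05, so rho is given as a description of the listed peaks.

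**Figure D5:**
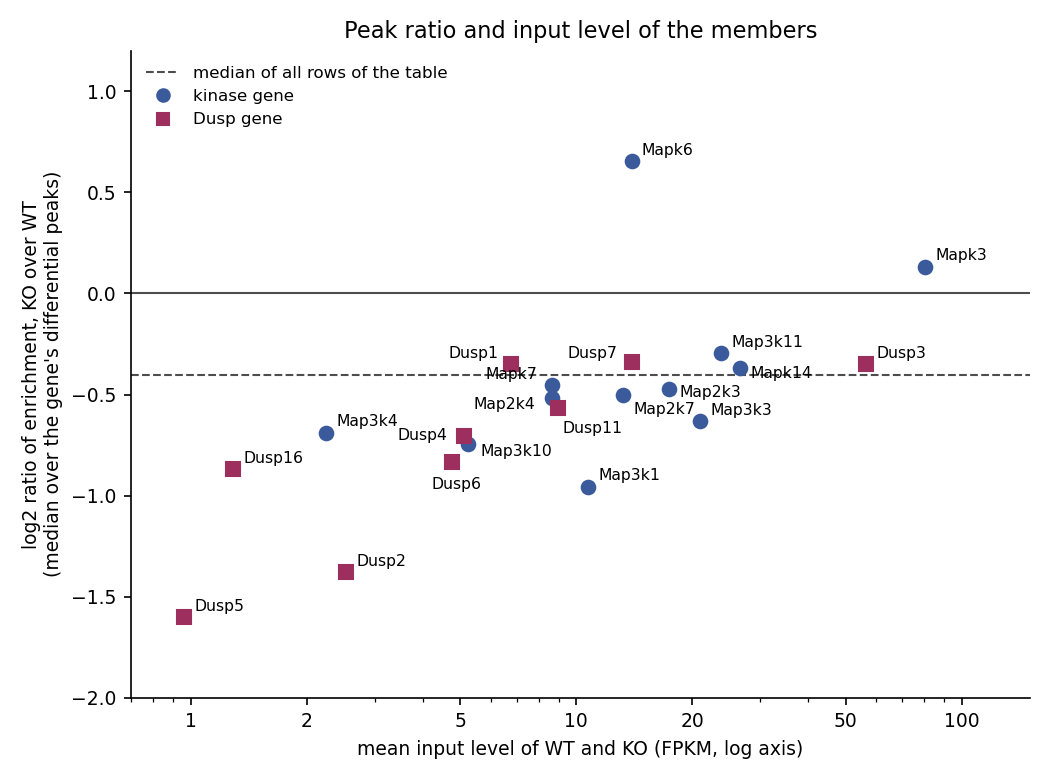
Mean input level of WT and KO (FPKM, log x axis) against the gene's median log2 ratio over its differential peaks (y axis) for the 21 members with a level; squares are Dusp genes and circles kinase genes. Dusp5, Dusp2 and Dusp16 stand at the lower left, and Mapk3 and Mapk6 above 0.

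Beyond the members, 76 further genes of the pathway were listed by role, of which 49 had a WT peak, 53 a KO peak and 24 a differential row. The 24 are 42.9% of the 56 with a peak in either list, beside 36.0% of all genes with a peak. Their 30 differential peaks were lower in KO at 22 (73.3%, beside 69.6% of all rows) and higher at 8, with a median of -0.36 in the authors' deposited table, close to the table's median. The lowest were Mapk8ip3, a JNK scaffold (-1.11), the transcription factors Elk3 (-0.98) and Ets2 (-0.90), and the kinases Mknk1 (-0.89, outside its RefSeq extent) and Rps6ka5 (-0.73, FDR 0.11), by the authors' deposited table. The highest were Pebp1, an inhibitor of the pathway (0.82), the scaffold Lamtor3 (0.78, FDR 0.083, outside its RefSeq extent) and the p38 target kinase Mapkapk2 (0.54) in the authors' deposited table. By role, with few peaks in each and the same 69.6% of all rows lower, lower and higher peaks numbered 4 and 0 for Ras genes, their effectors and regulators, 6 and 3 for scaffolds and adaptors (a group that also holds the kinase Taok3), 3 and 3 for downstream kinases, 6 and 0 for transcription factors, and 3 and 2 for other inhibitors. These count peaks and not genes. The 3 higher peaks of scaffolds were all of Lamtor3, partly overlapping, and those of downstream kinases were of Rps6ka3 and Mapkapk2. Elk3, Ets2 and Tab2 appeared repeatedly among the lower peaks.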

How the data were processed

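Groups were taken from the sample titles. Per the submitters' processing notes, fastp, HISAT2, HOMER, ChIPseeker, StringTie and edgeR were used with the build mm10. The step each served and the peak caller are not given in the sources used here. For each genotype the authors deposited 1 peak list called on 1 library pair and not pooled, with each peak's fold enrichment over input, which is a ratio, and its p-value, at most 0.05, per the file headers. The deposited false discovery rates are log10 values, treated as a score and converted back. The authors' table of differences gives a log2 ratio of KO over WT enrichment, per the file headers, and the deposited input levels are FPKM for genes with a row there.

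Each peak was used under the gene name the authors assigned. File starts count from 0 and are printed counting from 1. Overlap was computed on exonic blocks, ignoring strand, with bedtools 2.31.1 and a minimum of 1 base. Shares have exact (Clopper-Pearson) and medians order-statistic intervals at 95%. Input differences used log2(FPKM + 1), after leaving out genes whose mean was under 1 FPKM. No test was run, as each group is 1 library. The overlap and interval code was checked on simulated peaks. Python 3.11.15, pandas 2.3.3 and scipy 1.17.1 were used. Sequences are from RefSeq (GRCm38.p6); Map3k8, Mapk3, Map4k4, Dusp19, Dusp4, Map3k15 and Dusp9 had no entry.

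The members, the pathway list and the markers were chosen with earlier results of these data known. Results for some of these genes are not reported here, although they stand in the counts. Every member with a differential row is named with each of its differential peaks, though not with all its WT and KO peaks. From the pathway list the 5 lowest and 3 highest ratios are named, 1 per gene. Alternatives were stricter peak and difference thresholds, other overlap rules, peaks within the RefSeq gene, centring on the table's median, 1 value per gene, and other pseudocounts and level filters.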

Additional observations from a re-analysis of the deposited data

How the results depend on the processing

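Of 40 alternative values computed for 9 results, 24 stayed within 1.5 times the reported count or within the reported value's 95% interval, and 16 moved further. A change of sign was possible only for the medians, and none of the medians changed sign. Within its 95% interval, the median input difference went from 0.15 to 0.081 when centred on all listed genes. Subtracting the authors' table's median took the members' median ratio to -0.11 and their lower peaks to 20. Member peaks at least 1.5-fold lower went from 12 to 5, and the lower peaks of the pathway list from 22 to 14 of 30. A p of the difference under 0.001 in the authors' table left 16 lower member peaks of 16, 7 of them at least 1.5-fold lower, and 13 lower peaks of 15 for the pathway list, because fewer rows remained. The lower share of all rows at that p was not computed, so these counts do not set the members apart. An enrichment of at least 4-fold left 35 WT and 24 KO peaks of members, of which 42.9% and 75.0% overlapped a peak of the other list. A peak p of at most 1e-10 left 20 and 17, of which 75.0% and 94.1% did. With 50% of both peaks shared, the overlap was 44.6% of WT and 35.3% of KO peaks. Overlap under these stricter rules was not computed over all peaks, so these shares do not set the members apart. No paired analysis was possible because the result comes from no test, with 1 library per group. For the same reason no library could be left out. Depth is unknown, so a member's absence from a list does not show that it had no peak.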

Other observations

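Among the differential peaks that overlapped a peak of both lists, the authors' log2 ratio and the order of the WT and KO enrichments pointed in opposite directions at 2 of 25 member peaks (Mapk3 and Mapk14), and at 512 of 5094 peaks over all genes (10.1%), so the ratio is not simply the quotient of the enrichments of the 2 lists. Of the 12 members with peaks in 1 list only, the 4 in WT only (Map4k1, Dusp9, Dusp13 and Dusp19) held 5 peaks, 2 of them with an FDR under 0.05, and the 8 in KO only held 14 peaks, 6 of them with an FDR under 0.05, beside 42.5% of the WT peaks and 44.5% of the KO peaks of all genes found in 1 list only.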
